A study of Mus musculus with 8 samples.

Results

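Integrins are receptors of 1 alpha and 1 beta subunit that span the cell membrane and hold cells to the matrix around them, and laminins are the trimers of alpha, beta and gamma chains that carry most basement membranes. The genes described here are 32 genes of this system: 18 integrin subunits, 10 laminin chains, and the linkers and proteoglycans Nid1, Nid2, Hspg2 and Agrn. They were chosen by name as the genes whose probes carry one of these symbols on both array designs used, which gave 46 of 39429 shared probes and 32 of 30139 named genes. RNA came from GFP-positive cells sorted from kidney rudiments of NMRI mouse embryos at E11.5, and each of the 8 arrays measured a pool of about 100000 cells from male and female embryos. The 3 control pools carried 1 GFP allele of Tbx18, written Tbx18(GFP/+), and the 3 null pools carried 2, written Tbx18(GFP/GFP). The 2 Tbx18VP16 pools carried a Cre allele of Tbx18 and an Hprt allele with a CAG-driven fusion of Tbx18 to VP16 together with GFP, written Tbx18(cre/+);Hprt(Tbx18VP16). Every group therefore had at least 1 targeted Tbx18 allele, no group was wild type, and GFP marked cells through Tbx18 itself in control and null but through Cre activity in Tbx18VP16. Tbx18 encodes a transcription factor of the T-box family made by the cells that wrap the early ureter, and VP16 is a viral domain that activates transcription, so the design addresses which transcripts follow loss of Tbx18 and which follow an activating form of it.

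Laminins assemble outside the cell, where an alpha chain joins a beta and a gamma chain, and nidogens, perlecan (Hspg2) and agrin tie this network to collagen IV and to cells. In the embryonic kidney, the alpha 8 integrin of the metanephric mesenchyme takes part in the growth of the ureteric bud, and laminin alpha 5 belongs to the basement membranes of the bud and of the later glomerulus. Laminin alpha 2 is best known from muscle and nerve and laminin alpha 4 from vessels. An integrin's alpha subunit decides much of what it binds, so the genes are described below by ligand: collagen, laminin, the Arg-Gly-Asp (RGD) tripeptide of matrix proteins, and others.

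Each value rests on probes of 60 bases, of which 19 genes had 1, 12 had 2 and 1 gene (Nid1) had 3. The probes below are shown because the results turn on what they read: the shared subunit Itgb1, both probes of Itga1, whose differences were unequal, and the low collagen receptor gene Itga2. Capitals mark codons of known integrin tail motifs found in an open reading frame, NPxY in Itgb1 and GFFKR in Itga2. Both motifs lie inside the cell, and NPxY contacts proteins that link integrins to actin.
Itgb1: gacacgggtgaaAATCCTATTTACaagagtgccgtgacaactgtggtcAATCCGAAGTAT
Itga2: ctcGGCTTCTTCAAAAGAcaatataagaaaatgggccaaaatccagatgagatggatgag
Itga1 (brighter probe): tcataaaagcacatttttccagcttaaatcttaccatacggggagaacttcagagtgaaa
Itga1 (dimmer probe): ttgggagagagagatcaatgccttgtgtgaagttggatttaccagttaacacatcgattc
In the mm9 build the Itgb1 probe spans an intron at chr8:131250081-131255976 on the plus strand. The Itga2 probe lies at chr13:115626714-115626773 on the minus strand. The Itga1 probes span introns on the minus strand at chr13:115756765-115758419 (from base 3710 of the transcript) and chr13:115821387-115825525 (from base 683).

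Promoter windows of 300 bases, from 250 before to 50 after a gene's start, were found in the RefSeq table (GRCm38.p6) for 22 of the 32 genes, 26 windows in all. The T-box core site GGTGTGA, read on both strands, occurred in 1 of these 26 windows (3.846%) and in 3.979% of all 32851 windows. The gene with the match was Itga4, which encodes a receptor for fibronectin and VCAM1, and the match is in capitals in this window at chr2:79255250-79255279 on the plus strand.
Itga4: atgtctgccagGGTGTGAgtccatgcaacc
The GC box GGGCGG, on both strands, occurred in 15 of the 26 windows (57.69%) and in 35.66% of all windows. The window of Lama5 held 4 of them and 24 CpG dinucleotides, where the median window held 7, and the 205 bases of this window that lie before the gene's outermost end in the RefSeq gene table (chr2:180225905-180226109, minus strand) are printed because the level of Lama5 was separated from control by at least 2-fold in both other genotypes.
Lama5: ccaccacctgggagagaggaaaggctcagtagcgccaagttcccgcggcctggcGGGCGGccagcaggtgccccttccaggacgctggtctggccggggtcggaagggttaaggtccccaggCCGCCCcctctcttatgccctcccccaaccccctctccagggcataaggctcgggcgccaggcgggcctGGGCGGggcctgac

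Levels below are log2 signals relative to the array's own 75th percentile, so a level of 0 equals that percentile, and levels of different probes are not set against each other. Differences are in log2 with the standard error (SE) of the limma fit, and p-values were adjusted by Benjamini-Hochberg over all genes tested, with an adjusted 0.05 as the threshold for calling a gene changed. Between 60.2% and 66.1% of probes were well above background on an array and saturation was absent. Each replicate is its own pool, the spread behind a p-value is that between pools, and the precision is limited by how few arrays there are. The Tbx18 probe, a check of the labels, had a difference of -2.77 ± 0.44 (SE) in null pools, with an adjusted p of 0.118 by limma and 0.0316 once the replicate number was blocked. Control and null pools of the same number deviated together, so the blocked value is given where it changes a call. The Tbx18VP16 pools were hybridised to another array design on a slide of their own, so for every Tbx18VP16 difference the genotype, the array design, the slide and the scan cannot be told apart. Both mutant genotypes were compared with the same 3 control arrays.

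Of the 32 genes, 28 were bright enough to be tested in null against control and 29 in the Tbx18VP16 comparisons. Itgb6, Itgb8 and Lamb3 were well above background on no array, and Itga2 was not tested in null against control. In null pools 0 of 28 genes were called by limma, as were 0 of all 19724 genes (0%), and 7 of 28 had an unadjusted p under 0.05, against 4.83% of all genes. With the replicate block, 1 of the 28 genes (3.57%), Nid2, was called, against 0.958% of all genes. In Tbx18VP16 pools against control 5 of 29 genes (17.2%) were called, against 5.32% of all 20614 genes: Itga3, Itga7, Itgb3 and Lama5 rose and Lama2 fell. Against null, 1 of 29 (3.45%), Itga7, was called, against 3.66% of all genes (1.17% higher and 2.48% lower). The genes with an unadjusted p under 0.05 were 10 of 29 against control, where 22.8% of all genes had one, and 7 of 29 against null, where 22% had one. A median of -0.14 over all genes lay behind the Tbx18VP16 differences from control, with 421 genes (2.04%) called higher and 675 (3.27%) lower. When the arrays were scaled over all spots instead, the median moved to 0.32 and the split to 1133 higher and 251 lower. The 5 named genes kept their direction and their call under that scaling. Each array read a pool of sorted cells, in which more cells of a type and more RNA per cell cannot be told apart.

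**Figure D1:**
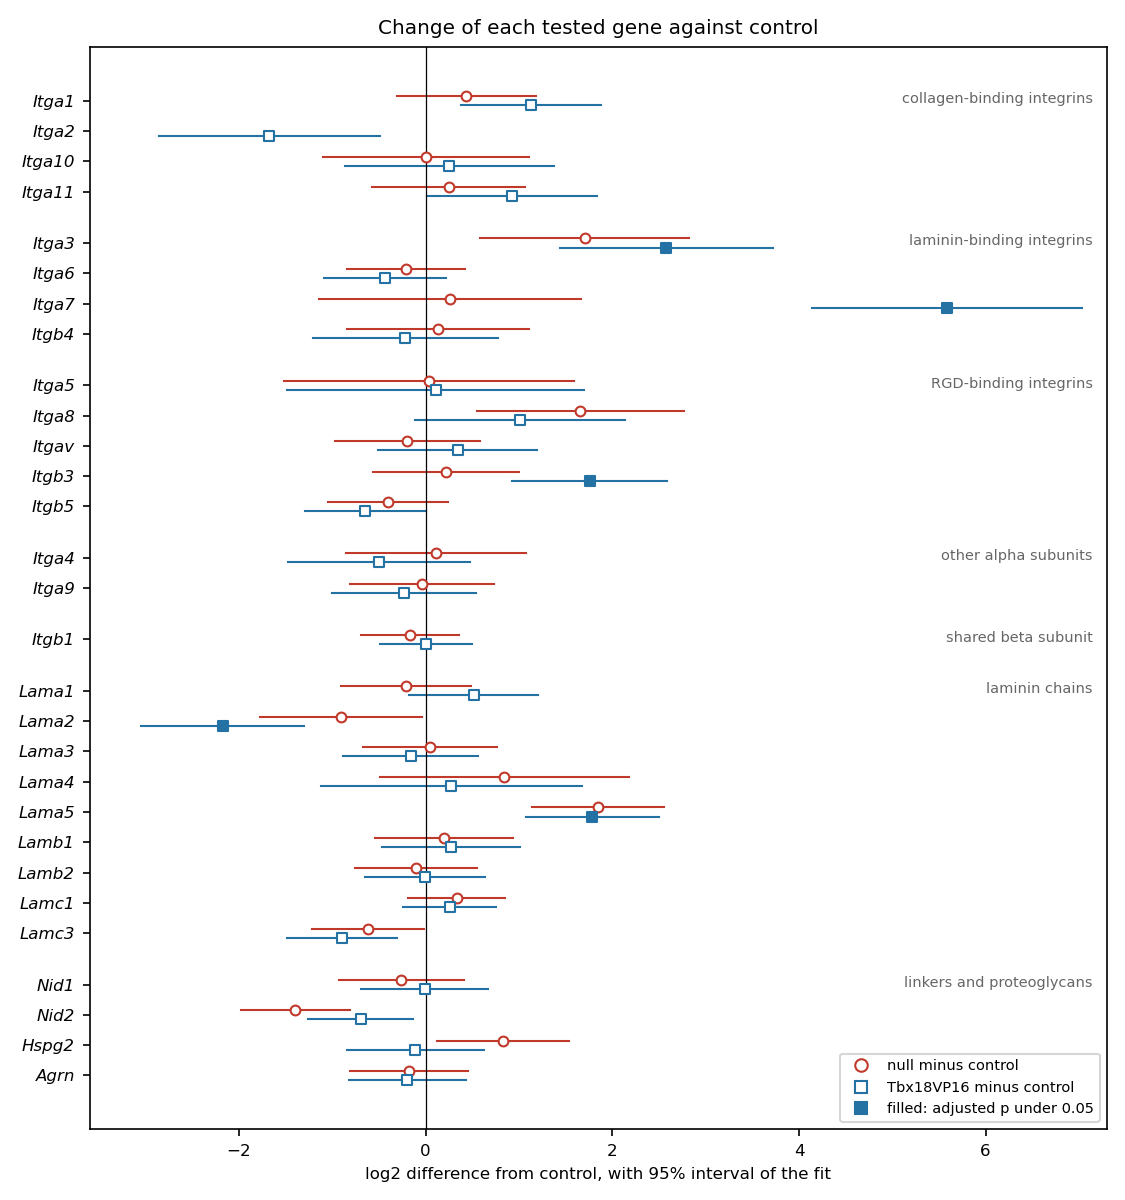
Each row is a tested gene, grouped by role, and the x axis is the log2 difference from control with the 95% interval of the limma fit, in null (circles, 3 against 3 arrays) and Tbx18VP16 pools (squares, 2 against 3 arrays). Filled squares mark the 5 genes called in Tbx18VP16 pools, with Itga7 at 5.59 and Lama2 at -2.17, and no null value is filled.

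Among the laminin-binding integrins, Itga7 and Itga3 rose in Tbx18VP16 pools, while Itga6 and Itgb4 had small differences on the probes that represent them. Itga7 encodes the alpha 7 subunit, the main laminin receptor of muscle. Its level was -6.06, -6.85 and -6.08 in controls 1 to 3, -4.82, -7.26 and -6.11 in nulls 1 to 3, and -0.96 and -0.53 in the Tbx18VP16 pools. Both Tbx18VP16 arrays lay far above every other array, and control and null overlapped. The probe was well above background on 1 of 3 control, 2 of 3 null and 2 of 2 Tbx18VP16 arrays. The difference from control was 5.59 ± 0.63 (SE, limma adjusted p = 0.0044), and that from null 5.32 ± 0.63 (SE, limma adjusted p = 0.0085), with no fold given because part of the control and null signals are in the background. Among all 20614 genes its p ranked 89 against control and 65 against null.

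Of 8 skeletal muscle markers, the list that goes with the textbook site of Itga7, Myf5, Myog, Pax7 and Chrna1 were well above background on no array, and 0 of the 4 tested were called by limma. Against control, Acta1 and Myod1 had an unadjusted limma p under 0.05 in Tbx18VP16 pools, as did 22.8% of all genes. Both were higher there without overlap, by 1.58 ± 0.55 and 1.41 ± 0.51 (SE, limma adjusted p = 0.141 and 0.151). Of the 4 tested, 3 differences were above 0 and 1 was below. The marker below 0 was Pax3, which was in the background on both Tbx18VP16 arrays. The mean level of the 8 markers was -6.08 to -5.60 in control, -5.60 to -5.45 in null and -5.43 to -5.40 in Tbx18VP16 pools. Of 5 smooth muscle markers, Acta2, Tagln and Cnn1 were well above background on every array, and Myh11 and Myocd on no control or Tbx18VP16 array. Against control, Cnn1 differed by 1.39 ± 0.37, Acta2 by 1.14 ± 0.58 and Tagln by -0.09 ± 0.34 in Tbx18VP16 pools (SE, limma adjusted p = 0.0703, 0.289 and 0.898), and Cnn1 was called higher than in null pools (1.76 ± 0.37, SE, limma adjusted p = 0.0452). The part of these markers in the Itga7 result was not tested.

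Itga3 encodes the alpha 3 subunit, a laminin receptor of epithelia and podocytes. Its level was -6.08, -5.17 and -5.43 in control, -4.87, -3.49 and -3.22 in null, and -3.03 and -2.94 in Tbx18VP16 pools. Every null and Tbx18VP16 array was above every control array. The rise in Tbx18VP16 pools was 2.58 ± 0.49 (SE, limma adjusted p = 0.0266). In null pools the difference was 1.70 ± 0.48 (SE, limma adjusted p = 0.482 without and 0.0559 with the block), and it was positive in 3 of 3 pairs, at 1.21, 1.69 and 2.20. The probe was well above background on 2 of 3 control arrays. Itga6, the alpha 6 subunit, was measured by a bright probe to an Ensembl transcript, with a difference of -0.44 ± 0.28 in Tbx18VP16 pools, and by a dimmer probe to the RefSeq transcript, with 1.82 ± 0.52 (SE, limma adjusted p = 0.100 over all probes). The probes of Itga6 thus disagreed in sign, and neither value passed the test. Itgb4, the partner of alpha 6 in hemidesmosomes, differed by -0.22 ± 0.43 in Tbx18VP16 and 0.13 ± 0.41 in null pools.

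**Figure D2:**
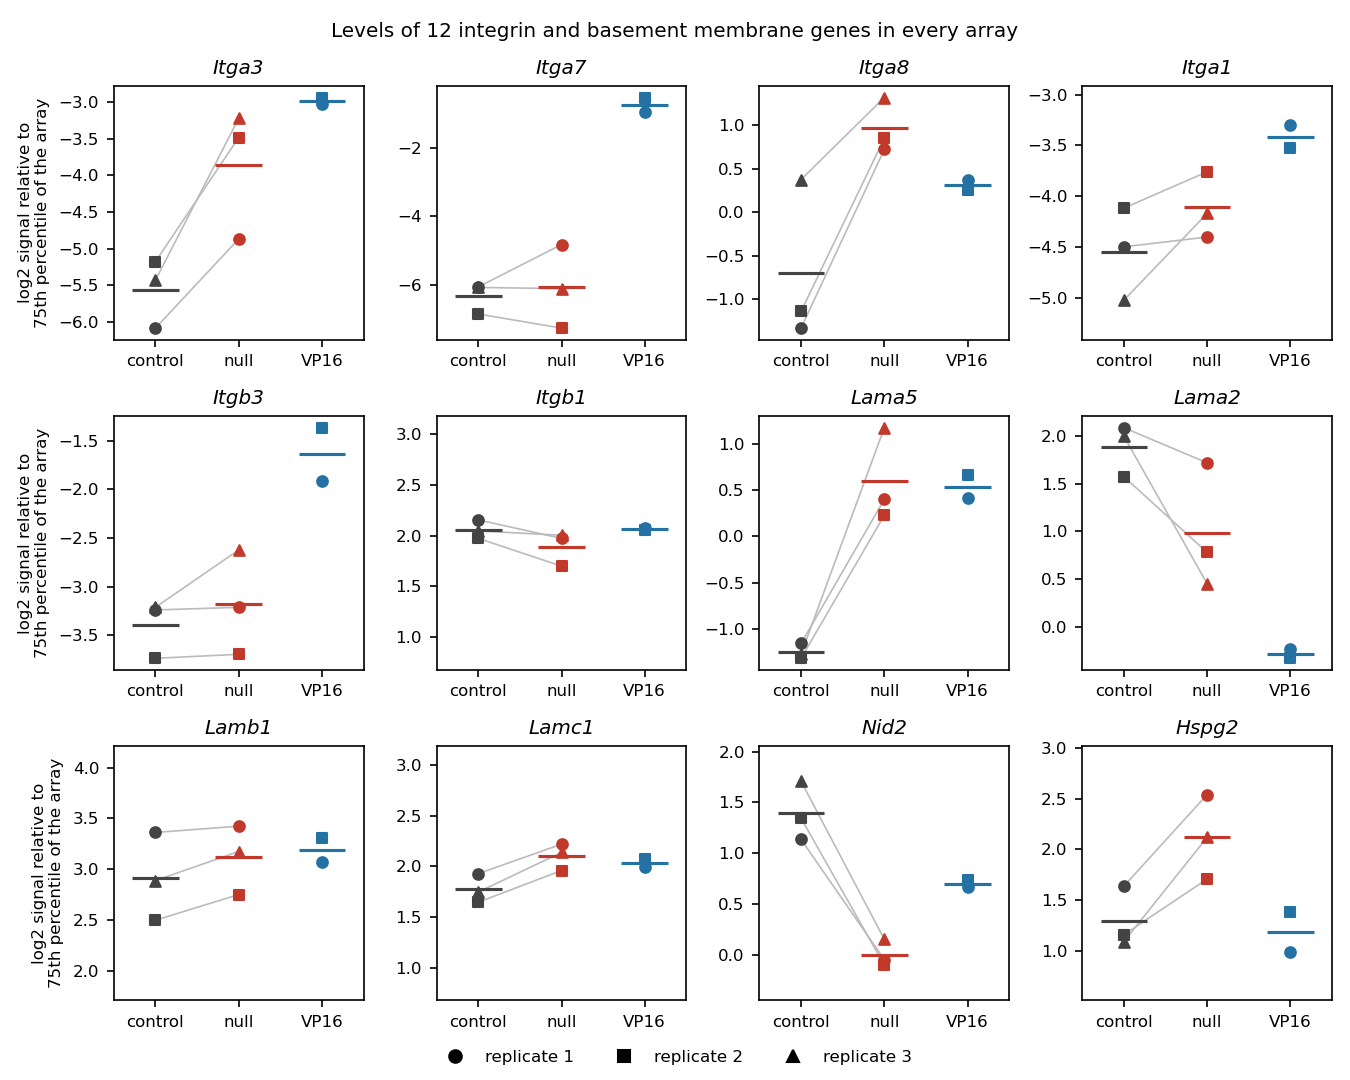
Each panel gives the level of a gene (log2 signal relative to the array's 75th percentile) in every control, null and VP16 (Tbx18VP16) array, with horizontal lines at group means and grey lines joining control and null pools of the same number. Itga7 lies highest in the 2 Tbx18VP16 pools, Itga3 and Lama5 lie above control in both other groups, Nid2 lies lowest in null, and Itgb1 differs by 0.00 between Tbx18VP16 and control.

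The collagen-binding integrins have alpha subunits that pair with beta 1. Limma called 0 of 3 tested genes in null and 0 of 4 in Tbx18VP16 pools against control. An unadjusted limma p under 0.05 was reached by 0 and 3 of them, against 4.83% and 22.8% of all genes. Of the 3, Itga1 and Itga11 were higher and Itga2 was lower. Itga1 had levels of -4.50, -4.12 and -5.03 in control, -4.40, -3.76 and -4.17 in null, and -3.30 and -3.53 in Tbx18VP16 pools. Its Tbx18VP16 arrays lay above all others, with a difference from control of 1.13 ± 0.33 (SE, limma adjusted p = 0.0884). It was called (limma adjusted p = 0.0287 to 0.0425) under scaling over all spots, under quantile normalisation and in the authors' deposited values. The second Itga1 probe, printed above, was well above background on both Tbx18VP16 arrays and on none of the other 6. Its Tbx18VP16 level was at least 2.68-fold above control. This probe entered the fit only through the Tbx18VP16 arrays, where it is high, so no p is given for it. Here a fold written "at least" sets the brighter mean against, for each dim array, whichever is higher, that probe's signal there or the dimmest signal still well above background.

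Itga2, the collagen receptor of platelets and epithelia, had levels of -5.84, -5.91 and -7.34 in control, -5.53, -6.76 and -6.16 in null, and -8.06 and -8.01 in Tbx18VP16 pools. It was well above background on 2 of 3 control arrays and on no other array. Its control level was at least 1.08-fold above Tbx18VP16 (limma adjusted p = 0.107, in a fit that it entered only through control arrays). Null against Tbx18VP16 compares levels that are both in the background. Itga11, a fibroblast receptor for fibrillar collagen, differed by 0.93 ± 0.40 (SE, limma adjusted p = 0.212) and Itga10, known from cartilage, by 0.25 ± 0.49 in Tbx18VP16 pools.

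Of the RGD-binding integrins, 5 of 7 genes could be tested, 1 (Itgb3) rose in Tbx18VP16 pools, and Itga8 had its largest difference in null pools. Itga8 encodes the receptor for nephronectin on metanephric mesenchyme. Its level was -1.33, -1.14 and 0.38 in control, 0.72, 0.85 and 1.32 in null, and 0.37 and 0.26 in Tbx18VP16 pools. Null arrays lay above all control arrays, and Tbx18VP16 arrays just below the third control array. The null difference was 1.66 ± 0.47 (SE, limma adjusted p = 0.504 without and 0.0774 with the block), with pair values of 2.05, 1.99 and 0.94. In Tbx18VP16 pools it was 1.01 ± 0.49 (SE, limma adjusted p = 0.267).

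Itgb3 encodes the beta 3 subunit, which pairs with alpha v and, in platelets, with alpha IIb. Its level was -3.24, -3.74 and -3.21 in control, -3.21, -3.70 and -2.62 in null, and -1.91 and -1.37 in Tbx18VP16 pools. The Tbx18VP16 arrays lay above all others. The rise over control was 1.76 ± 0.36 (SE, limma adjusted p = 0.0341), and the difference from null was 1.54 ± 0.36 (SE, limma adjusted p = 0.0594). A second Itgb3 probe was in the background on all 8 arrays. Of the megakaryocyte and platelet markers reported here, 6 of 6 were called higher in Tbx18VP16 pools than in control, as were 2.04% of all genes. Against null, 1 of 6 was called higher, as were 1.17% of all genes. Their mean level was -6.92 to -6.65 in control, -6.79 to -3.60 in null and -2.10 to -1.15 in Tbx18VP16 pools. Ppbp, Gp9, Gp1ba and Treml1 did not rise above background in any control, and the part of these markers in the Itgb3 result was not tested. Itgav, which also pairs with beta 3, differed by 0.34 ± 0.37 and Itgb5 by -0.65 ± 0.28 (SE, limma adjusted p = 0.619 and 0.22). Itga5, the fibronectin receptor subunit, spanned -2.85 to -0.91 within control alone, and its interval in Tbx18VP16 pools ran from -1.48 to 1.70.

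The shared beta 1 subunit had a similar level in every array. Itgb1 lay at 2.15, 1.97 and 2.05 in control, 1.97, 1.70 and 2.0 in null, and 2.07 and 2.05 in Tbx18VP16 pools. Its difference was 0.00 ± 0.22 in Tbx18VP16 pools (interval -0.49 to 0.50) and -0.17 ± 0.22 in null pools (interval -0.69 to 0.35), beside medians over all genes of -0.14 and 0.01. The second Itgb1 probe differed by 0.25 in Tbx18VP16 and -0.17 in null pools. Itga4 and Itga9, receptor subunits for VCAM1, fibronectin and tenascin, differed by -0.50 ± 0.42 and -0.23 ± 0.34 in Tbx18VP16 pools and by 0.11 ± 0.41 and -0.04 ± 0.33 in null pools.

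Among the 9 laminin chains tested, 2 alpha chains were called in Tbx18VP16 pools, Lama5 higher and Lama2 lower, and the beta 1 and gamma 1 chains, which most laminins share, were not. Lama5 encodes the alpha 5 chain, found in epithelial basement membranes. Its level was -1.15, -1.31 and -1.27 in control, 0.40, 0.23 and 1.17 in null, and 0.41 and 0.67 in Tbx18VP16 pools. The control arrays lay close together and below every other array. The Tbx18VP16 rise was 1.79 ± 0.31 (SE, limma adjusted p = 0.0188), 3.45-fold. The null difference was 1.85 ± 0.30 (SE, limma adjusted p = 0.129 without and 0.0508 with the block), 3.60-fold, and positive in 3 of 3 pairs at 1.56, 1.54 and 2.44. When all 8 arrays entered the null comparison, its adjusted p was 0.0492. The Tbx18VP16 minus null difference was -0.06 ± 0.31 (interval -0.77 to 0.65).

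Lama2 encodes the alpha 2 chain, named above for muscle and nerve. Its level was 2.09, 1.57 and 2.0 in control, 1.72, 0.78 and 0.45 in null, and -0.24 and -0.33 in Tbx18VP16 pools. Both Tbx18VP16 arrays lay below all others, and null 1 lay among the controls. The gene fell by 2.17 on the log2 scale in Tbx18VP16 pools (SE 0.38, limma adjusted p = 0.0192), 4.51-fold. In null pools the difference was -0.90 ± 0.37 (SE, limma adjusted p = 0.992), lower in 3 of 3 pairs. The second Lama2 probe differed by -1.30 ± 0.31 in Tbx18VP16 pools (SE, limma adjusted p = 0.059 over all probes) and by -0.96 ± 0.30 in null pools. The probes of Lama2 thus had the same sign and unequal size.

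Of the other alpha chains, Lama1, an early embryonic chain, differed by 0.52 ± 0.30 in Tbx18VP16 and -0.21 ± 0.30 in null pools. Lama4, the chain of vessel walls, differed by 0.84 ± 0.57 in null pools, where its level was -2.04, -1.96 and -0.06. Null 3 was the highest array for Lama4, and it also had the highest mean of 6 endothelial markers, -0.26, where controls lay between -3.60 and -2.71. The part of the endothelial markers in the Lama4 values was not tested. Lama3, an epithelial chain, had 2 probes that disagreed. The brighter one differed by -0.16 ± 0.31 in Tbx18VP16 pools. The dimmer one was in the background on all control and null arrays and at -5.15 and -4.56 in Tbx18VP16 pools. Its level there was at least 3.31-fold above control and at least 3.97-fold above null. It entered the fit only through the Tbx18VP16 arrays, where it is high, so no p is given for it.

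**Figure D3:**
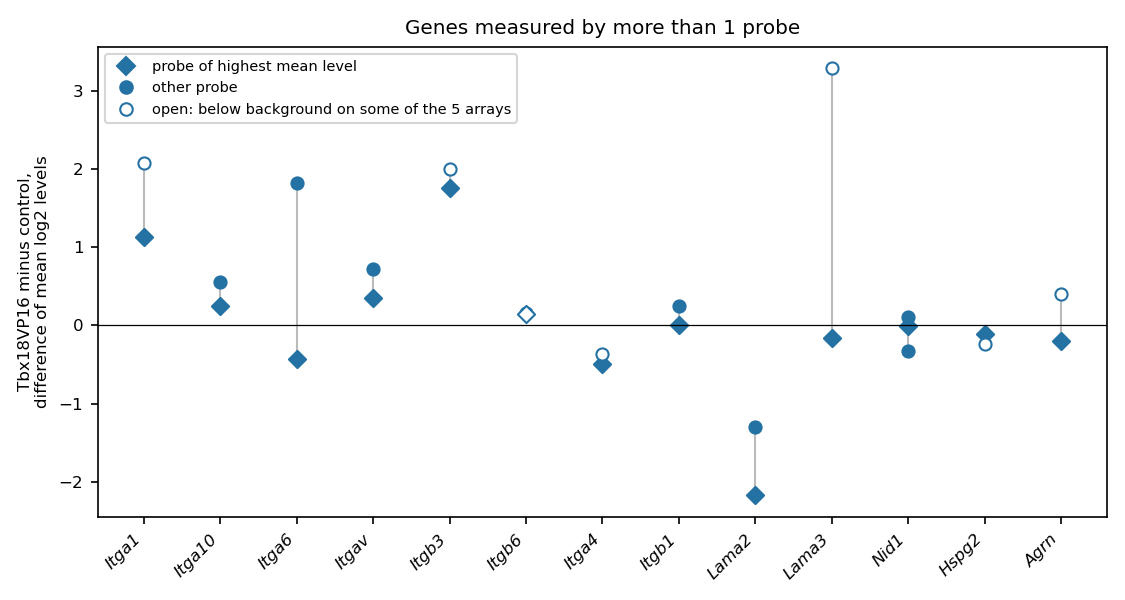
For the 13 genes with more than 1 probe, each point is the Tbx18VP16 minus control difference of mean log2 levels of a probe, with diamonds for the probe of highest mean level that represents the gene, and open symbols where the probe was not well above background on all 5 arrays. The probes of Lama3, Itga6, Agrn and Nid1 lie on both sides of 0, and both probes of Lama2 lie below it.

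Lamb1, at 2.50 to 3.36 in control, 2.75 to 3.42 in null and 3.07 to 3.30 in Tbx18VP16 pools, overlapped between groups. Its difference was 0.20 ± 0.31 in null (interval -0.54 to 0.94) and 0.27 ± 0.32 in Tbx18VP16 pools (interval -0.47 to 1.02). Lamc1 differed by 0.33 ± 0.22 in null, where all 3 arrays were above control, and by 0.26 ± 0.22 in Tbx18VP16 pools. Lamb2, the beta chain of synapses and the glomerulus, differed by -0.10 ± 0.28 in null and -0.01 ± 0.28 in Tbx18VP16 pools. Lamc3 lay at -2.56, -2.46 and -2.38 in control, at -2.68, -3.29 and -3.27 in null and at -3.37 and -3.36 in Tbx18VP16 pools, below control on every array. Its differences of -0.62 ± 0.26 in null and -0.90 ± 0.26 in Tbx18VP16 pools did not pass (SE, limma adjusted p = 1 and 0.0861).

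Of the linkers and proteoglycans, Nid2 was the gene called in null pools, and with the pairing in the fit. Nid2 encodes nidogen 2, which bridges laminin gamma chains and collagen IV. Its level was 1.13, 1.34 and 1.71 in control, -0.05, -0.10 and 0.15 in null, and 0.66 and 0.74 in Tbx18VP16 pools. All null arrays lay below the Tbx18VP16 arrays, which lay below all control arrays. The null difference was -1.40 ± 0.25 (SE, limma adjusted p = 0.167), and with the block -1.40 ± 0.14 (SE, limma adjusted p = 0.0384), a 2.63-fold lower level seen in 3 of 3 pairs at -1.18, -1.45 and -1.56. Without pair 1 or pair 2 the blocked fit called 0 of these genes, and without pair 3 it called 5: Hspg2, Itga3, Itga8, Lama5 and Nid2. Over all genes these 3 fits called 16, 11 and 905 genes, and 189 with all pairs. In Tbx18VP16 pools the Nid2 difference from control was -0.70 ± 0.25 (SE, limma adjusted p = 0.146).

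Nid1, the first nidogen, differed by -0.26 ± 0.29 in null and -0.01 ± 0.30 in Tbx18VP16 pools, and its interval in the latter ran from -0.70 to 0.67. Hspg2, the proteoglycan perlecan, lay at 1.64, 1.16 and 1.09 in control, 2.54, 1.71 and 2.12 in null and 0.99 and 1.38 in Tbx18VP16 pools. Null arrays of Hspg2 were above all others, with a difference of 0.83 ± 0.30 (SE, limma adjusted p = 0.847 without and 0.0986 with the block), positive in 3 of 3 pairs. Agrn, which clusters receptors at synapses and joins basement membranes elsewhere, differed by -0.17 ± 0.27 in null and -0.20 ± 0.27 in Tbx18VP16 pools.

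Counted by size, 4 of 28 genes (14.3%) in null pools had a measured difference of at least 2-fold with no overlap between the arrays of the groups, against 2.47% of all genes (1.53% higher and 0.948% lower): Itga3, Itga8 and Lama5 higher and Nid2 lower. In Tbx18VP16 pools against control 7 of 29 (24.1%) did so, against 16.7% of all genes (5.47% higher and 11.2% lower): the 5 called genes, Itga1 higher and Itga2 lower, the last by its measured signal alone, since its bound is at least 1.08-fold. Against null it was 4 of 29 (13.8%), against 15.6% of all genes (4.03% higher, the rest lower): Itga7 and Itgb3 higher, Lama2 lower, and Itga2, whose levels in both groups are in the background, so that no size can be given for it. The median size of the log2 difference was 0.23 in null pools for these genes and 0.15 for all genes, 0.44 and 0.43 in Tbx18VP16 pools against control, and 0.35 and 0.44 in Tbx18VP16 against null. The remaining 24 genes in null pools lay between -0.90 (Lama2) and 0.84 (Lama4), and the remaining 22 in Tbx18VP16 pools against control between -0.90 (Lamc3) and 1.01 (Itga8).

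The calls in Tbx18VP16 pools depended on single arrays. Against control the count of 5 became 0 without either Tbx18VP16 array, 1 (Itga7) without control 2 and 3 (Itga7, Lama2 and Lama5) without control 1, while each named difference kept its direction. Over all genes the count of 1096 became 52 and 40 without Tbx18VP16 replicate 1 and 2, 296 without control 2 and 837 without control 1. For Itga7 against null the adjusted p was 0.15 without Tbx18VP16 replicate 1 and 0.193 without replicate 2.

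Marker genes of other cells also differed between the pools. Of 8 nephron progenitor markers, all well above background on every array, 2 were called higher in null with the block, against 0.487% of all genes. In Tbx18VP16 pools 2 of 8 were called higher than in control, against 2.04% of all genes. Their mean level was 0.15 to 0.40 in control, 1.20 to 2.09 in null and 1.50 to 1.53 in Tbx18VP16 pools. The control mean was the lowest of the 3 group means for this list, as it was for Itga3, Itga8 and Lama5. It was also the lowest for the megakaryocyte and platelet, white blood cell, skeletal muscle, smooth muscle and coelomic mesothelium marker lists. Of 9 ureteric epithelium markers 0 were called by limma. Against control, 2 had an unadjusted p under 0.05 in null and 0 in Tbx18VP16 pools, as did 4.83% and 22.8% of all genes. The mean level of these 9 was -3.74 to -2.63 in control, -3.49 to 0.15 in null and -3.16 in both Tbx18VP16 pools. Of 7 ureteric mesenchyme markers, all well above background on every array, the mean was 0.24 to 0.53 in control, -0.10 to 0.11 in null and 0.60 to 0.87 in Tbx18VP16 pools. This list holds Tbx18 itself and Foxf1, which rose by 2.94 ± 0.44 in Tbx18VP16 pools (SE, limma adjusted p = 0.0125). Without Tbx18 the mean was 0.10 to 0.47 in control, 0.27 to 0.42 in null and 0.53 to 0.79 in Tbx18VP16 pools, and without Tbx18 and Foxf1 it was 0.62 to 0.93, 0.31 to 0.70 and 0.51 to 0.72 in the same order. The part of these markers in the results for Itga3, Itga8 and Lama5 was not tested.

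**Figure D4:**
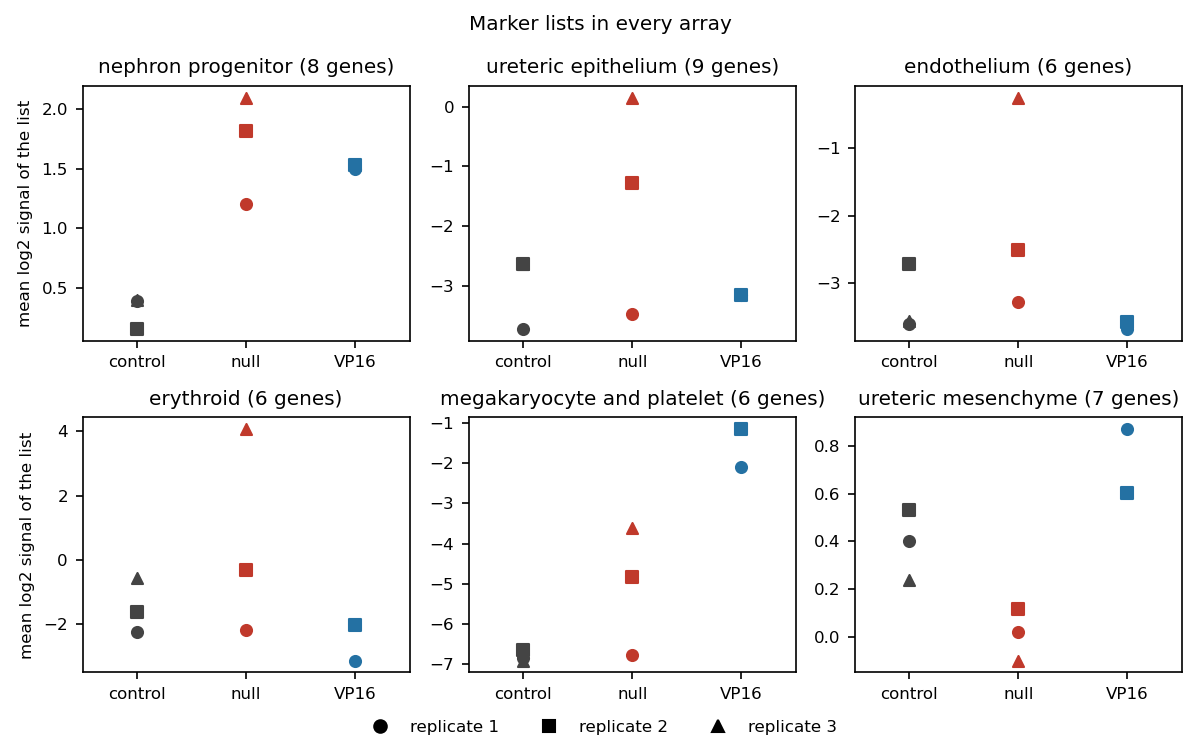
Each panel gives the mean log2 level of a marker list in every control, null and VP16 (Tbx18VP16) array. Nephron progenitor markers are lowest in control (0.15 to 0.40), erythroid, endothelial and ureteric epithelium markers are highest in null replicate 3, and platelet markers are highest in Tbx18VP16 pools (-2.10 to -1.15).

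Other genes of the pathway were read from the same fits. Of 17 tested basement membrane genes outside the 32, which include the collagen IV chains and Fras1, 0 were called by limma in any of the 3 comparisons or with the block. An unadjusted p under 0.05 was reached by 2 of them in null and 2 in Tbx18VP16 pools against control, and by 3 in Tbx18VP16 against null. The shares of all genes were 4.83%, 22.8% and 22% in the same order. Of 15 other receptors of matrix and laminin, 0 were called without the block. An unadjusted p under 0.05 was reached by 4 in null and 2 in Tbx18VP16 pools against control, against 4.83% and 22.8% of all genes. With the block 1 of 15, Sgce of the sarcoglycan complex, was lower in null (-1.03 ± 0.12, SE, limma adjusted p = 0.0483), against 0.472% of all genes. Of 24 adaptors on the inner side of integrins, 0 were called against control by limma. An unadjusted p under 0.05 was reached by 0 in null and 3 in Tbx18VP16 pools, against 4.83% and 22.8% of all genes. Between Tbx18VP16 and null pools 1 of 24 was called, where 3.66% of all genes were, so the list did not stand out. That gene was Vcl, which encodes vinculin and was higher in Tbx18VP16 pools (1.15 ± 0.23, SE, limma adjusted p = 0.0393).

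Integrin ligands outside the basement membrane were counted in the same way. Of 14 tested in Tbx18VP16 pools against control, 1 was called higher and 3 lower, against 2.04% and 3.27% of all genes. Against null, 1 of 14 was called lower and 0 higher, against 2.48% and 1.17% of all genes. Vtn, the RGD ligand vitronectin, was well above background on no control array and was at least 3.43-fold higher in Tbx18VP16 pools (limma adjusted p = 0.0159). Fbln5, an elastic fibre protein that binds integrins, fell by 2.09 on the log2 scale (SE 0.48, limma adjusted p = 0.0464). Edil3, a secreted RGD protein, fell by 1.01 (SE 0.23, limma adjusted p = 0.0482), and the control level of Tnc, tenascin C, was at least 1.26-fold above Tbx18VP16. Tnc is 1 of the 3 by its limma adjusted p of 0.016, but it was well above background on no null or Tbx18VP16 array. It entered the fit through control arrays alone, where it is high, so this p lends the fall no weight. With the block, null pools had Fbln5, Vcam1 and Postn lower and Spp1, osteopontin, higher, of 12 tested. The shares of all genes called in that fit were 0.472% lower and 0.487% higher. Fbln5 lay at 0.32, 0.18 and 1.09 in control and -3.34, -3.73 and -2.31 in null pools, a difference of -3.66 ± 0.43 (SE, limma adjusted p = 0.0741 without and 0.015 with the block). Npnt, the nephronectin ligand of alpha 8 beta 1, differed by 0.77 ± 0.43 in null pools and did not pass.

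Of 8 integrin subunits of blood cells, 5 were tested. In Tbx18VP16 pools against control 2 were called higher and 1 lower, against 2.04% and 3.27% of all genes. Against null 1 was called higher and 0 lower, against 1.17% and 2.48% of all genes. Itgal, the alpha L subunit of leukocytes, differed by 2.26 ± 0.34 (SE, limma adjusted p = 0.0123). Itga2b, the platelet partner of beta 3, was at -7.31, -5.83 and -6.60 in control, -6.10, -5.70 and -5.07 in null, and -4.47 and -3.59 in Tbx18VP16 pools. Its rise over control was 2.55 ± 0.50 (SE, limma adjusted p = 0.028), in the same arrays in which Itgb3 and the platelet markers were high. Itgam, the alpha M subunit of myeloid cells, fell by 1.47 (SE 0.31, limma adjusted p = 0.0375). Its level was 2.16 and 2.09 in Tbx18VP16 pools and higher on every control and null array. Itgb2, a beta subunit of this list, was not called. It lay at -3.58, -4.11 and -4.51 in control and -4.93 and -4.62 in Tbx18VP16 pools. Of 7 white blood cell markers, 3 were well above background on every control array, and Ptprc and Cd52 on none. Whether the Itgam probe follows myeloid cells was not tested.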

How the data were processed

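The genes and gene lists described here were chosen with earlier results of these data known. The scanner files hold spot intensity values on a linear scale, corrected for background by Agilent Feature Extraction 10.7.3.1, per the file headers, and flags for outlier spots and for brightness over background. A value table deposited by the authors gives intensity, quantile-normalised across arrays as its identical columns of sorted values show, and served as an alternative. Per the labels, 20 ng of RNA entered the labelling, and 10 ng for replicate 3 of control and null.

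For 39429 probes shared by both designs (4 spots each), outlier spots (1.86% to 2.55%) were left out, spots were averaged, and log2 minus the array's 75th percentile, which was 976 to 2129, was taken. Tests took probes that rose well above background on 3 or more of the 6 control and null arrays, or 2 or more of all 8, and the probe of highest mean level represented its gene. Names came from RefSeq tables (GRCm38.p6): 27508 probes by accession, 3544 by symbol, 404 by synonym, and 7973 kept the file's name or had none. Null was compared with control on 6 arrays and Tbx18VP16 with control and with null in a fit of 3 group means on all 8, which assumes equal spread in all groups, with limma 3.58.1 (R 4.3.3) and two-sided Benjamini-Hochberg adjusted p-values. The fits were also run on simulated data in which arrays varied independently, so effects of pairing, slide and array design were not covered.

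Named with array values were genes called in any comparison or in the blocked fit, and those with at least a 2-fold difference and no overlap. Array values or ranges of Itgb1, Lama3, Lama4, Lamb1, Lamc3, Hspg2 and Itga5 lie outside this rule and were chosen after values were seen. Pairing was checked on deviations from group means: 0.827, 0.708 and 0.43 for same-numbered control and null pools, and -0.751 to 0.315 otherwise. The block leaves 2 residual degrees of freedom. Alternatives covered scaling, background, filter, outlier spots, probe choice, replicates, input RNA, slide and pairing. Probe coordinates are those of the files (mm9). One marker of the megakaryocyte and platelet list and one probe sequence are not reported here.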

Additional observations from a re-analysis of the deposited data

How the results depend on the processing

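No difference of a named gene reversed its sign under any alternative run, though Itga2 in Tbx18VP16 against control was at 0 in the authors' deposited values. For null against control the count of called genes stayed at 0 in 19 of 22 alternatives. It was 1 with the replicate block (Nid2), 1 with 3 group means on 8 arrays (Lama5), and 5 with the replicate block without replicate 3, an alternative chosen after seeing the data. Leaving out 1 array in turn gave 0 in each case, and in the replicate block leaving out each pair gave 0 to 5. For Tbx18VP16 against control (5 genes), leaving out 1 array gave 0 to 5, and the random replicate block gave 8 (3563 of all genes, against 1096). For Tbx18VP16 against null (1 gene), scaling over all spots gave 3 and the random replicate block 5 (920 and 3259 of all genes, against 754), while normexp with quantile normalisation, the stricter filter and the mean of a gene's probes gave 2 each, and leaving out 1 array gave 0 to 2. Among Tbx18VP16 pools, replicate numbers shared with control did not pair the samples (0.0251 and -0.265), so the random replicate block is only an added reading. For null against control, the slide of replicates 1 and 2 is the same set of arrays as the 20 ng pools, which called 0. Over all genes, the null count of 0 became 189 with the block and 905 with the block without replicate 3, and the Tbx18VP16 split of 421 higher and 675 lower became 566 and 564 in the authors' deposited values. When a group was left with 1 array, that array was assumed to vary like the others. Signal over background limits Itga7, Itga2 and Itga3 in control, and nothing can be said of levels of Itgb6, Itgb8 and Lamb3.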
